A study of Mus musculus with 11 samples.

Results

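Semaphorins, ephrins, Slits and netrins and their receptors, first known as the cues that steer growing axons, were measured here in cells sorted from mouse back skin. The 72 guidance genes are the protein-coding genes of the Ensembl release 96 annotation whose symbol begins with Sema, Plxn, Efna, Efnb, Epha, Ephb, Slit (without Slitrk), Unc5 or Ntn, together with Nrp1, Nrp2, Robo1, Robo2, Dcc and Neo1, out of 22028 protein-coding and 55536 genes in all. A symbol rule also takes in Unc50 and Unc5cl, which carry the letters but are not netrin receptors. Of the 72 genes, 65 passed the filter on low counts and were among the 20307 genes tested.

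All mice were male CD4Cre R26-tdT animals on the C57Bl6/N background, in which Cre under regulatory sequence of Cd4 switches on the red fluorescent protein tdT from the Rosa26 locus. A tdT+ cell is therefore one in which Cre was active at some time, in itself or in an ancestor, and tdT does not report present CD4. Back skin cells were sorted on the integrin CD49f, on CD34 and on SCA-1 into 4 groups: tdT+CD49f+CD34+ (3 libraries), tdTneg CD49f+CD34+ (3), tdT+CD49f+CD34+SCA-1+ (3) and tdTneg CD49f+CD34+SCA-1+ (2). Each library came from the pooled cells of 2 mice, aged 29 weeks for replicate 1 and 32 weeks for replicates 2 and 3, so p-values measure the spread between such pools. The populations without and with SCA-1 are called SCA-1neg and SCA-1+ here, and values are listed in the order of the replicate numbers.

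In the classical pathways, secreted class 3 semaphorins bind neuropilins, which pair with plexins as the signalling chain, whereas most membrane-bound semaphorins bind plexins directly. Ephrins sit on the cell surface and bind Eph receptor tyrosine kinases on the neighbouring cell, and both partners can signal. Slits bind Robo receptors, and netrins bind Dcc, neogenin (Neo1) and the Unc5 receptors. In skin these proteins are known for cell adhesion and sorting, keratinocyte differentiation and the guidance of nerves and vessels.

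The libraries held 17409131 to 46542177 counts on Ensembl genes, of which the guidance genes took 0.365% to 0.598%. Values are normalised CPM (counts per library scaled to a common size with TMM factors), or RPKM (CPM per kilobase of exon) where genes are compared with each other. Ly6a, which encodes SCA-1, was at 2.46 to 59.2 CPM in SCA-1neg and 153 to 294 CPM in SCA-1+ libraries. Cd34 RNA was at 468 to 1130 CPM in SCA-1neg, 320 and 383 CPM in tdTneg SCA-1+ and 22.3 to 35.7 CPM in tdT+ SCA-1+ libraries, so the SCA-1+ groups carried less of the RNA of a protein on which they were sorted. One row outside the Ensembl genes, whose identity is not given in the sources used here, read 133 to 307 CPM in 5 of the 6 tdT+ libraries and 2.54 to 4.89 in tdTneg libraries, but 2.05 in the library labelled tdT+CD49f+CD34+ replicate 2. Counts without that library are given below.

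Marker lists moved between the populations as well. All 7 bulge markers fell and all 7 markers of the interfollicular epidermis rose from SCA-1neg to SCA-1+ cells, and so did all 7 T cell and all 5 Langerhans cell markers. Summed T cell markers were at 1.45 to 45.7 CPM in SCA-1neg, 217 to 679 CPM in tdT+ SCA-1+ and 57.0 and 59.3 CPM in tdTneg SCA-1+ libraries. Langerhans cell markers summed to at most 347 CPM in SCA-1neg, 268 to 407 CPM in tdT+ SCA-1+ and 637 and 684 CPM in tdTneg SCA-1+ libraries. Summed endothelial markers were at 3925 and 4179 CPM in the tdTneg SCA-1+ libraries, 889 CPM in tdT+CD49f+CD34+ replicate 2 and 9.59 to 141 CPM in the other 8 libraries. No marker of these 3 lists was at 0 in any library. Of the other lists, 2 of 5 melanocyte markers fell, 1 of 5 Schwann cell markers (Mbp) rose, and none of 6 fibroblast or 5 sebaceous gland markers was called by edgeR. On the first principal component of all genes, 3 of the 6 SCA-1neg libraries stood apart, tdT+ replicates 1 and 2 and tdTneg replicate 2, from -176 to -120, against 14.6 to 104 for the other 8 libraries. Summed sebaceous gland markers were at 1418, 798 and 1243 CPM in these 3, and at 108 to 417 CPM in the other 8. Results that rest on these 3 libraries are also given without them (66 guidance genes tested), with the lone tdT+ SCA-1neg library left assumed to vary like the other groups. The part of these cells in the guidance results was not tested. In such bulk samples, fewer cells of a type and less RNA per cell cannot be told apart.

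Per length of transcript, the ephrins and Eph receptors stood highest among the guidance genes. Ephb6, a receptor without kinase activity, had the highest mean (96.6 RPKM over 11 libraries), followed by the ligands Efna1 (81.3), Efnb1 (72.6) and Efnb2 (58.6), the plexin Plxnb2 (51.0) and the receptor Epha2 (44.4). Means of 10 RPKM or more were found for 23 of the 72 genes, and 26 had less than 1 RPKM. The 7 genes that did not pass the filter were the receptors Dcc, Epha5, Epha6, Epha8 and Epha10, the netrin Ntn5 and Unc5cl, with at most 50 counts in any library (Epha5). At this depth, Dcc, the classical netrin receptor, had 0 to 8 counts per library.

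**Figure D1:**
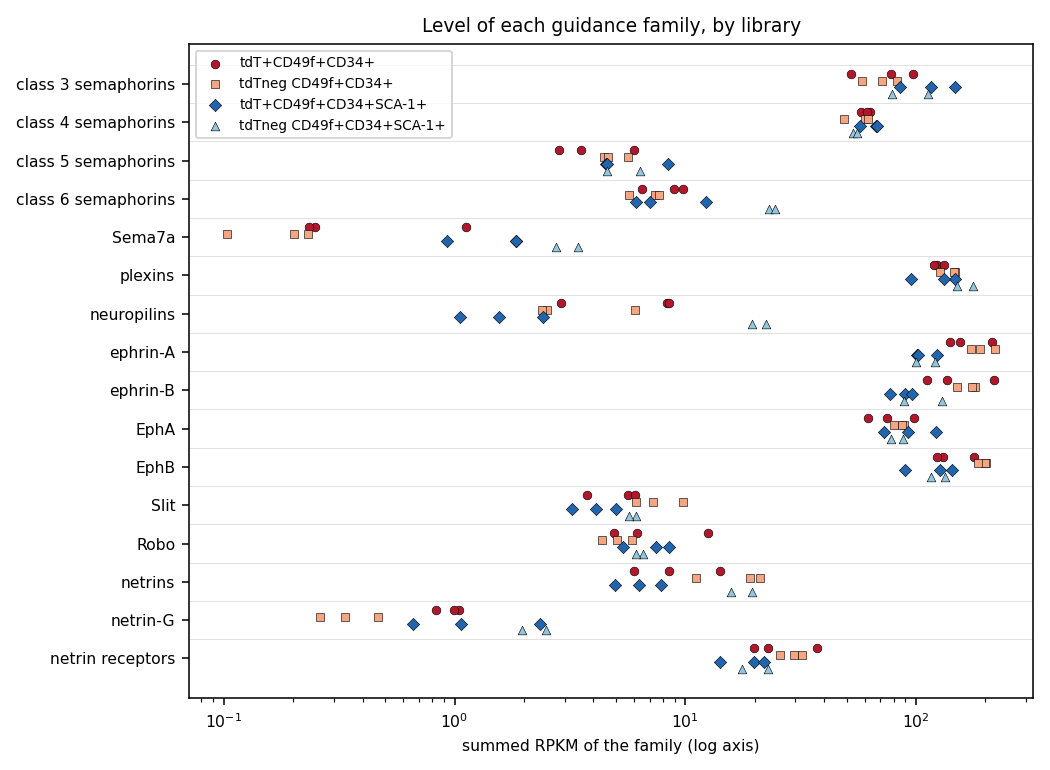
Summed RPKM of the members of each guidance family (log axis), 1 point per library, coloured by sorted group. Both ephrin families lie lower in SCA-1+ than in most SCA-1neg libraries, and neuropilins and class 6 semaphorins lie highest in the 2 tdTneg SCA-1+ libraries.

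Several genes were the highest of their family by RPKM and were called by neither edgeR nor DESeq2. Ephb6 read 87.5, 80.7 and 126 in tdT+ SCA-1neg, 136, 134 and 121 in tdTneg SCA-1neg, 86.3, 60.5 and 97.0 in tdT+ SCA-1+ and 62.3 and 71.7 in tdTneg SCA-1+ libraries, in RPKM. All 5 SCA-1+ libraries lay below the 3 tdTneg SCA-1neg libraries but overlapped the tdT+ SCA-1neg ones. Efna1, an ephrin anchored to the membrane by a lipid, read 84.3, 73.6 and 123 in tdT+ SCA-1neg, 90.6, 92.1 and 115 in tdTneg SCA-1neg, 58.0, 60.7 and 73.0 in tdT+ SCA-1+ and 57.5 and 66.9 in tdTneg SCA-1+ libraries, in RPKM. All SCA-1+ libraries lay below all SCA-1neg libraries for Efna1, a difference that had an adjusted p of 0.0198 in edgeR but stayed under the fold threshold (log2 fold change -0.61). Efnb1, a transmembrane ephrin, read 67.6, 58.7 and 92.4 in tdT+ SCA-1neg, 103, 93.3 and 94.7 in tdTneg SCA-1neg, 58.7, 48.0 and 65.3 in tdT+ SCA-1+ and 47.5 and 69.4 in tdTneg SCA-1+ libraries, in RPKM, and the populations overlapped. Epha2, an EphA receptor that binds Efna1, read 28.2, 37.4 and 50.05 in tdT+ SCA-1neg, 41.3, 36.6 and 41.7 in tdTneg SCA-1neg, 52.1, 39.6 and 71.6 in tdT+ SCA-1+ and 47.8 and 42.0 in tdTneg SCA-1+ libraries, in RPKM. The populations overlapped for Epha2 over both tdT states, although the 2 tdTneg groups did not. Plxnb2, a receptor of class 4 semaphorins, read 49.0, 47.5 and 42.7 in tdT+ SCA-1neg, 43.9, 43.9 and 37.0 in tdTneg SCA-1neg, 62.5, 39.5 and 65.7 in tdT+ SCA-1+ and 62.1 and 67.7 in tdTneg SCA-1+ libraries, in RPKM. All SCA-1+ libraries but tdT+ replicate 2 lay above the SCA-1neg ones.

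In the other families the most abundant uncalled genes also overlapped between the populations. Sema4a, a membrane semaphorin also known from immune cells, read 21.6, 18.6 and 25.4 in tdT+ SCA-1neg, 21.8, 23.9 and 20.7 in tdTneg SCA-1neg, 20.1, 17.9 and 20.3 in tdT+ SCA-1+ and 13.5 and 13.1 in tdTneg SCA-1+ libraries, in RPKM, and the 2 tdTneg SCA-1+ libraries were the lowest. Sema5a, a membrane semaphorin with thrombospondin repeats, read 3.44, 2.67 and 6.01 in tdT+ SCA-1neg, 5.64, 4.38 and 4.61 in tdTneg SCA-1neg, 8.43, 4.52 and 4.56 in tdT+ SCA-1+ and 5.90 and 3.93 in tdTneg SCA-1+ libraries, in RPKM. Slit3, the only Slit above 1 RPKM, read 5.498, 3.56 and 5.99 in tdT+ SCA-1neg, 9.61, 7.13 and 5.96 in tdTneg SCA-1neg, 3.26, 3.13 and 4.58 in tdT+ SCA-1+ and 5.25 and 5.35 in tdTneg SCA-1+ libraries, in RPKM. Its population difference was -0.49 ± 0.19 (SE), adjusted p = 0.0993 by edgeR, so it was not called. Ntn4, a netrin of basement membranes, read 11.5, 3.89 and 4.93 in tdT+ SCA-1neg, 18.8, 15.9 and 9.19 in tdTneg SCA-1neg, 7.38, 4.68 and 4.87 in tdT+ SCA-1+ and 8.97 and 7.07 in tdTneg SCA-1+ libraries, in RPKM, and the ranges of all 4 groups overlapped at least 1 other group.

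The main comparison asks how cells of the same CD49f+CD34+ gate differ with and without SCA-1, as the mean over tdT status. From SCA-1neg to SCA-1+ cells, 10 of the 65 guidance genes rose and 9 fell (edgeR quasi-likelihood test, adjusted p under 0.05 and absolute log2 fold change over 1). These are 15.4% and 13.8% of the guidance genes, against 4.77% of all genes tested that rose and 6.79% that fell. Rising genes were the semaphorins Sema3d, Sema3f, Sema3g, Sema4d, Sema6d and Sema7a and the receptors Robo1, Ephb2 and Unc5a, with Ntng2. Falling genes were the semaphorins Sema3e, Sema4g and Sema6c, the plexin Plxna2, the ephrin Efna4, the receptors Ephb1, Robo2 and Neo1, and the netrin Ntn3. The 6 SCA-1neg and 5 SCA-1+ libraries did not overlap for 15 of the 65 genes, against 10.8% of all genes. The median log2 fold change of the guidance genes was -0.23, against -0.09 over all genes. The 46 genes not called had log2 fold changes from -3.82 upwards, and 11 of them had an adjusted p under 0.05 but missed the fold threshold. With tdT+CD49f+CD34+ replicate 2 left out, 20 genes were called, 16 of them among the 19, and 2295 of all genes against 2347. Without the 3 SCA-1neg libraries that stood apart, 27 were called (16 higher, 11 lower), 17 of them among the 19, and 2927 of all genes against 2347. Ephb1 and Unc5a were lost, at adjusted p-values of 0.0722 and 0.0527.

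**Figure D2:**
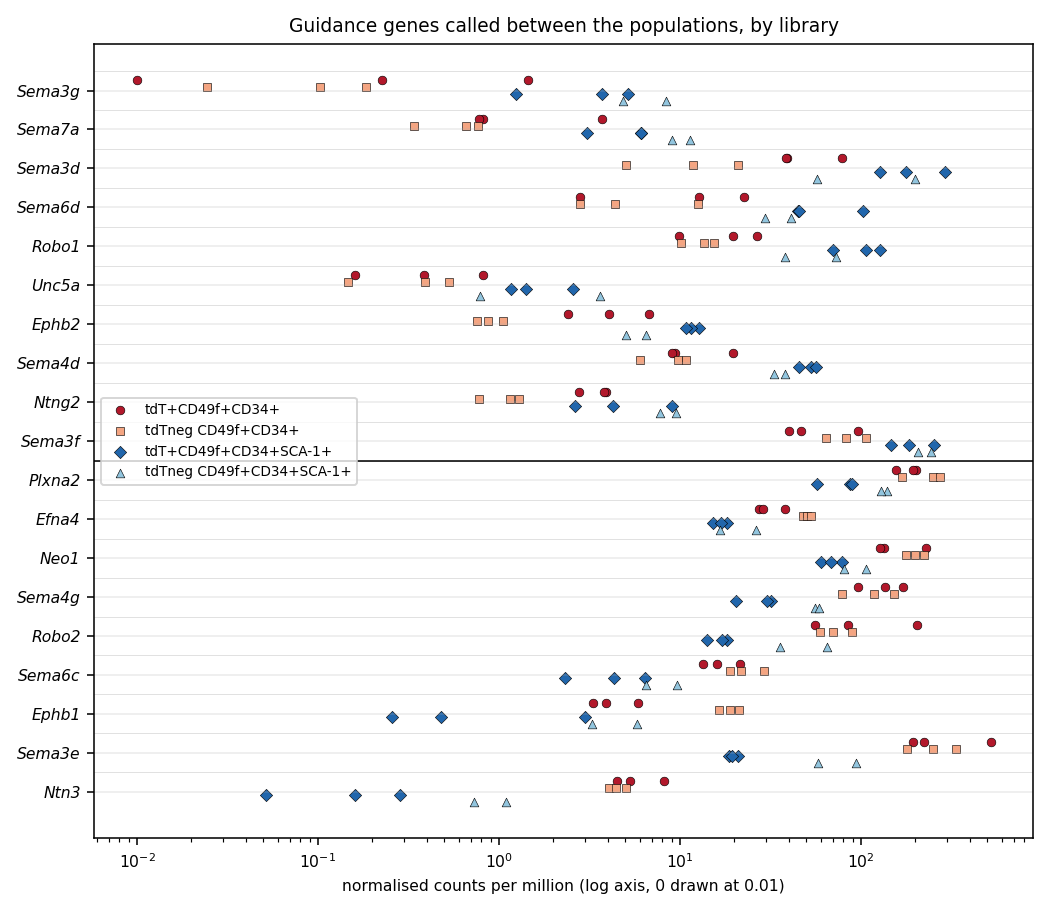
Normalised CPM (log axis) of the 19 guidance genes called between SCA-1neg and SCA-1+ cells, 1 point per library. Genes above the black line rose in SCA-1+ cells and genes below it fell, with Sema3e going from 179.9 to 521 CPM in SCA-1neg to 18.7 to 94.1 CPM in SCA-1+ libraries.

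Among the secreted semaphorins, the balance of the class 3 members was shifted. Sema3e, a ligand that can bind Plxnd1 without a neuropilin, read 195, 223 and 521 in tdT+ SCA-1neg, 252, 179.9 and 335 in tdTneg SCA-1neg, 18.7, 21.1 and 19.5 in tdT+ SCA-1+ and 57.7 and 94.1 in tdTneg SCA-1+ libraries, in CPM. All 5 SCA-1+ libraries lay below all 6 SCA-1neg libraries, and the 3 tdT+ SCA-1+ libraries lay below the 2 tdTneg ones. Its log2 fold change was -2.87 ± 0.31 (SE), adjusted p = 0.000374. Sema3d read 39.3, 79.0 and 38.5 in tdT+ SCA-1neg, 20.9, 5.02 and 11.8 in tdTneg SCA-1neg, 290.1, 128 and 178 in tdT+ SCA-1+ and 199 and 56.9 in tdTneg SCA-1+ libraries, in CPM. Here tdTneg SCA-1+ replicate 2 lay inside the range of the tdT+ SCA-1neg libraries, and the other SCA-1+ libraries lay above it, with a log2 fold change of 2.64 ± 0.45 (SE), adjusted p = 0.00317.

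Sema3f, a ligand of Nrp2, read 46.7, 96.03 and 40.3 in tdT+ SCA-1neg, 83.1, 107 and 63.8 in tdTneg SCA-1neg, 254, 147 and 185 in tdT+ SCA-1+ and 244 and 208 in tdTneg SCA-1+ libraries, in CPM. All SCA-1+ libraries lay above all SCA-1neg libraries for Sema3f, with a log2 fold change of 1.55 ± 0.25 (SE), adjusted p = 0.0026. Sema3g was scarce throughout and read 0.227, 1.45 and 0 in tdT+ SCA-1neg, 0.103, 0.185 and 0.0244 in tdTneg SCA-1neg, 3.70, 1.25 and 5.16 in tdT+ SCA-1+ and 4.84 and 8.38 in tdTneg SCA-1+ libraries, in CPM. With 0 to 27 counts per library in SCA-1neg cells, its fitted log2 fold change of 4.26 ± 0.93 (SE), adjusted p = 0.0113, depends on the prior count and gives the direction rather than the size. Sema3c, the most abundant class 3 semaphorin per length, read 125, 182 and 195 in tdT+ SCA-1neg, 176, 120.1 and 230.5 in tdTneg SCA-1neg, 442, 279 and 400.1 in tdT+ SCA-1+ and 249.5 and 139 in tdTneg SCA-1+ libraries, in CPM. Over both tdT states its difference was 0.65 ± 0.23 (SE), adjusted p = 0.0701, and it was called only within tdT+ cells, where the log2 fold change was 1.16 ± 0.31 (SE), adjusted p = 0.0362. Without any 1 of 6 of the libraries that call was lost, with an adjusted p of up to 0.117 or a log2 fold change down to 0.99, and without the 3 SCA-1neg libraries that stood apart it was 0.92 (adjusted p = 0.158). Sema3a and Sema3b, the remaining members of the class, had means of 0.06 and 0.58 RPKM and were not called by edgeR with the filter used here. DESeq2 called Sema3b between the populations and both genes within tdT+ cells, and edgeR with the filter of 10 counts called Sema3b in both comparisons, as it did without the 3 SCA-1neg libraries that stood apart. Sema3a was also called for tdT in SCA-1+ cells by DESeq2 and by edgeR without those 3 libraries, and in both population comparisons by edgeR without tdT+ SCA-1+ replicate 1.

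Sema3d, Sema3a and Sema3e are neighbours on mouse chromosome 5 (GRCm38), on the same strand, with 536466 bases between Sema3d and Sema3a and 422711 between Sema3a and Sema3e. Sema3d and Sema3e moved in opposite directions, and their ratio per length turned over between the populations. The ratio of Sema3d to Sema3e RPKM was 0.218, 0.382 and 0.0799 in tdT+ SCA-1neg and 0.0896, 0.0302 and 0.0381 in tdTneg SCA-1neg libraries. In SCA-1+ libraries it was 16.8, 6.59 and 9.86 for tdT+ and 3.72 and 0.654 for tdTneg cells. Sema3e thus exceeded Sema3d in all 6 SCA-1neg libraries and in tdTneg SCA-1+ replicate 2, and Sema3d exceeded Sema3e in the other 4 SCA-1+ libraries.

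Robo1 and Robo2, the Slit receptors, are likewise neighbours, 845744 bases apart on chromosome 16 on opposite strands, and showed the same kind of exchange. Robo1 read 19.7, 26.8 and 9.86 in tdT+ SCA-1neg, 15.4, 13.6 and 10.2 in tdTneg SCA-1neg, 127, 70.5 and 107 in tdT+ SCA-1+ and 73.3 and 38.2 in tdTneg SCA-1+ libraries, in CPM. Every SCA-1+ library lay above every SCA-1neg library, with a log2 fold change of 2.26 ± 0.29 (SE), adjusted p = 0.000763. Robo2 read 84.5, 56.0 and 204 in tdT+ SCA-1neg, 70.4, 59.9 and 88.9 in tdTneg SCA-1neg, 14.04, 18.3 and 17.1 in tdT+ SCA-1+ and 35.9 and 64.8 in tdTneg SCA-1+ libraries, in CPM. The 3 tdT+ SCA-1+ libraries were the lowest, while tdTneg SCA-1+ replicate 2 lay within the SCA-1neg range, and the log2 fold change was -1.67 ± 0.33 (SE), adjusted p = 0.00686. The ratio of Robo1 to Robo2 RPKM was 0.0498 to 0.492 in the 6 SCA-1neg libraries, 9.32, 3.97 and 6.43 in tdT+ SCA-1+ and 2.10 and 0.606 in tdTneg SCA-1+ libraries. The summed level of the pair, in RPKM, was 7.90 ± 4.12 (SD, n = 3) in tdT+ SCA-1neg, 5.09 ± 0.749 (n = 3) in tdTneg SCA-1neg, 7.12 ± 1.62 (n = 3) in tdT+ SCA-1+ and 6.34 ± 0.304 (n = 2) in tdTneg SCA-1+ cells, a difference within the spread of the groups. Of their ligands, Slit1 and Slit2 had means of 0.27 and 0.04 RPKM and were not called by edgeR on all 11 libraries, while DESeq2 called Slit1 between the populations. Without the 3 SCA-1neg libraries that stood apart, the edgeR log2 fold change of Slit1 was 5.56. Slit1 had 0 to 186 counts per library.

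**Figure D3:**
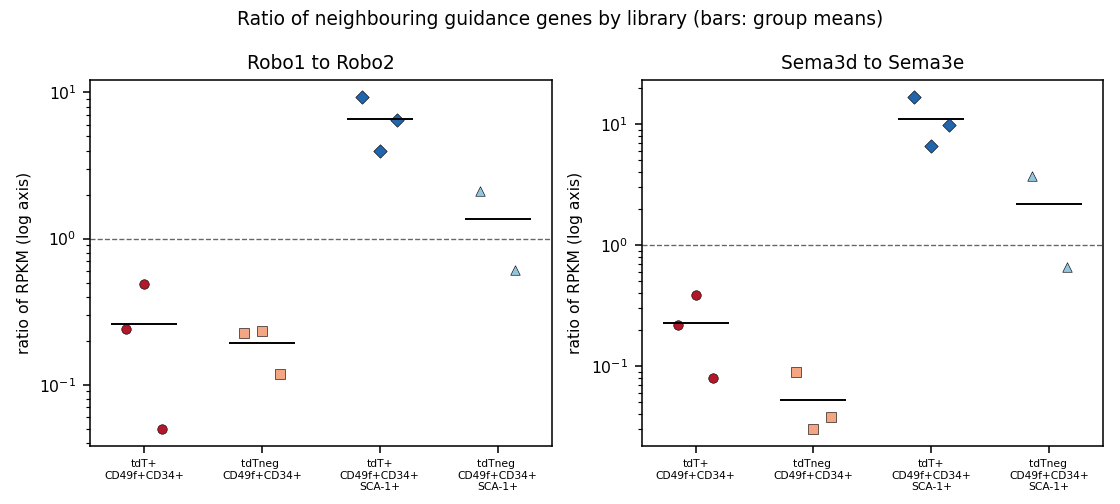
Ratio of RPKM between neighbouring genes (log axis), Robo1 to Robo2 on the left and Sema3d to Sema3e on the right, 1 point per library with the group mean as a bar and a dashed line at 1. All SCA-1neg libraries lie below 1 in both panels, and all SCA-1+ libraries except tdTneg SCA-1+ replicate 2 lie above it.

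Membrane-bound semaphorins changed in both directions. Sema4d, known as CD100 on lymphocytes and as a ligand of Plxnb1, read 9.38, 19.6 and 9.04 in tdT+ SCA-1neg, 10.8, 9.73 and 6.05 in tdTneg SCA-1neg, 45.6, 52.8 and 56.4 in tdT+ SCA-1+ and 33.0 and 38.1 in tdTneg SCA-1+ libraries, in CPM. The populations did not overlap, and the log2 fold change was 2.01 ± 0.24 (SE), adjusted p = 0.000583. T cell markers, given above, rose in the same libraries, and their part in this result was not tested. Sema4g read 172, 136 and 96.2 in tdT+ SCA-1neg, 119, 153 and 78.5 in tdTneg SCA-1neg, 31.9, 20.6 and 30.1 in tdT+ SCA-1+ and 56.0 and 59.0 in tdTneg SCA-1+ libraries, in CPM. Its SCA-1+ libraries lay below every SCA-1neg library, with a log2 fold change of -1.66 ± 0.22 (SE), adjusted p = 0.000893. Sema4b, which had an adjusted p of 0.000992 and a log2 fold change of 0.83, also separated the populations without overlap but stayed under the fold threshold.

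Of class 6, whose members bind A-type plexins, Sema6d read 22.7, 12.8 and 2.81 in tdT+ SCA-1neg, 4.40, 12.6 and 2.81 in tdTneg SCA-1neg, 45.0, 102 and 45.7 in tdT+ SCA-1+ and 41.0 and 29.5 in tdTneg SCA-1+ libraries, in CPM. The SCA-1+ libraries lay above all SCA-1neg libraries, with a log2 fold change of 2.37 ± 0.54 (SE), adjusted p = 0.0144, and without tdTneg SCA-1+ replicate 1 the adjusted p was 0.0594. Inside the SCA-1neg groups the 3 libraries that stood apart were the highest for Sema6d, and without them its log2 fold change was 3.91 (adjusted p = 0.000163). Sema6c read 16.04, 13.4 and 21.4 in tdT+ SCA-1neg, 29.1, 19.0 and 21.8 in tdTneg SCA-1neg, 4.34, 2.33 and 6.40 in tdT+ SCA-1+ and 6.49 and 9.63 in tdTneg SCA-1+ libraries, in CPM. It was lower in every SCA-1+ library, with a log2 fold change of -1.75 ± 0.29 (SE), adjusted p = 0.00288. Sema7a, which is anchored by a lipid and binds integrins and Plxnc1, was scarce and read 0.816, 3.70 and 0.771 in tdT+ SCA-1neg, 0.661, 0.766 and 0.342 in tdTneg SCA-1neg, 6.10, 3.07 and 6.09 in tdT+ SCA-1+ and 9.05 and 11.4 in tdTneg SCA-1+ libraries, in CPM. The library labelled tdT+CD49f+CD34+ replicate 2 lay inside the SCA-1+ range and the other SCA-1neg libraries lay below it, with a log2 fold change of 2.82 ± 0.49 (SE), adjusted p = 0.00381.

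Of the semaphorin receptors, 1 of 9 plexins (Plxna2) and none of the 2 neuropilins was called over both tdT states by edgeR on all 11 libraries. With the replicate block Plxna4 and Plxnd1 were called in place of Plxna2. Both were also called by edgeR without tdT+ SCA-1neg replicate 2 or tdTneg SCA-1neg replicate 2. DESeq2 also called Plxna4. Nrp2 had an adjusted p of 0.0478 in edgeR at a log2 fold change of 0.69, and Nrp1 had a log2 fold change of -0.75. Without the 3 SCA-1neg libraries that stood apart, these were 1.01 for Nrp2 and 2.09 for Nrp1. In that fit Plxna4 had 1.54 and Plxnd1 2.6. Plxna2 read 156, 202 and 195 in tdT+ SCA-1neg, 249.8, 168 and 275 in tdTneg SCA-1neg, 87.6, 57.5 and 89.1 in tdT+ SCA-1+ and 139 and 129.6 in tdTneg SCA-1+ libraries, in CPM. The SCA-1+ libraries lay below the SCA-1neg libraries without overlap, but the log2 fold change of -1.01 ± 0.17 (SE), adjusted p = 0.00299, was close to the fold threshold, and with the replicate number as a block (replicate block) it was -0.97 (adjusted p = 0.00462) and no longer called. DESeq2 did not call it either, and it was lost without any 1 of 6 of the libraries, with log2 fold changes down to -0.90. Plxnb1, the receptor of Sema4d, had a log2 fold change of -0.50 (adjusted p = 0.0229), and Plxnb2 of 0.46 (adjusted p = 0.0497), so neither reached the fold threshold.

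All 5 ephrin-A ligands had negative log2 fold changes, from -1.07 to -0.61, and 1 of them, Efna4, was called by edgeR on all 11 libraries. Efna4 read 27.2, 29.0 and 38.1 in tdT+ SCA-1neg, 47.9, 50.5 and 53.0 in tdTneg SCA-1neg, 15.3, 18.2 and 16.8 in tdT+ SCA-1+ and 16.6 and 26.4 in tdTneg SCA-1+ libraries, in CPM. All SCA-1+ libraries lay below all SCA-1neg libraries, with a log2 fold change of -1.07 ± 0.15 (SE), adjusted p = 0.00143. An antisense transcript overlaps Efna4, and another Efna3, and the strand setting of the counting is not given in the sources used here. Without tdT+ SCA-1neg replicate 3 or tdTneg SCA-1+ replicate 1 the fold of Efna4 fell under the threshold, with a log2 fold change of -0.92 at the smallest. Efna1, Efna3 and Efna4 lie beside each other on chromosome 3 on the same strand, with 32757 and 10425 bases between them. Efna3 had a log2 fold change of -0.73 (adjusted p = 0.00569) and Efna5 of -0.91 (adjusted p = 0.0113), and like Efna1 and Efna4 they did not overlap between the populations. Efna5 was called by edgeR without tdT+ SCA-1+ replicate 3. Without the 3 SCA-1neg libraries that stood apart, its log2 fold change was -1.14, and that of Efna3 was -0.90. Summed ephrin-A levels were 170.0 ± 38.7 and 194 ± 23.7 RPKM (SD, n = 3 each) in tdT+ and tdTneg SCA-1neg cells and 109 ± 12.9 (n = 3) and 110.4 ± 14.9 RPKM (n = 2) in tdT+ and tdTneg SCA-1+ cells.

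The 3 ephrin-B ligands also had negative log2 fold changes. Efnb2, a ligand of EphB receptors and of Ephb4 in particular, read 460.2, 362 and 847 in tdT+ SCA-1neg, 523, 384 and 545 in tdTneg SCA-1neg, 209, 198 and 204 in tdT+ SCA-1+ and 276 and 415 in tdTneg SCA-1+ libraries, in CPM. The tdT+ SCA-1+ libraries were the lowest, and tdTneg SCA-1+ replicate 2 lay inside the SCA-1neg range. Over both tdT states Efnb2 missed the fold threshold on all 11 libraries, at -0.97 ± 0.23 (SE), adjusted p = 0.0164, and within tdT+ cells it fell, at -1.45 ± 0.30 (SE), adjusted p = 0.0133. It was called over both states by edgeR without tdT+ SCA-1neg replicate 1, tdT+ SCA-1neg replicate 2 or tdTneg SCA-1neg replicate 2. Without the 3 SCA-1neg libraries that stood apart, its log2 fold change over both states was -1.33.

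Receptors of the EphB class went opposite ways. No EphA receptor was called by edgeR as used here, but Epha7 was called between the populations and within tdT+ cells with the replicate block, with the filter of 1 count and without tdT+ SCA-1neg replicate 3. Ephb2, a kinase that sorts cells along the crypts of the gut, read 6.75, 2.41 and 4.08 in tdT+ SCA-1neg, 1.05, 0.872 and 0.756 in tdTneg SCA-1neg, 12.7, 11.5 and 10.8 in tdT+ SCA-1+ and 5.06 and 6.49 in tdTneg SCA-1+ libraries, in CPM. The tdTneg SCA-1neg libraries were the lowest and the tdT+ SCA-1+ libraries the highest, and the populations overlapped because tdT+ SCA-1neg replicate 1 exceeded both tdTneg SCA-1+ libraries. Its log2 fold change was 2.04 ± 0.29 (SE), adjusted p = 0.00139. Ephb1 read 5.85, 3.32 and 3.91 in tdT+ SCA-1neg, 16.4, 21.1 and 19.0 in tdTneg SCA-1neg, 0.480, 3.01 and 0.258 in tdT+ SCA-1+ and 3.26 and 5.82 in tdTneg SCA-1+ libraries, in CPM. It was highest in the tdTneg SCA-1neg libraries and its log2 fold change was -1.94 ± 0.57 (SE), adjusted p = 0.0409, a call lost without any 1 of 8 of the libraries, with an adjusted p of up to 0.191. A non-coding gene on the opposite strand overlaps Ephb1.

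In the netrin system, 1 receptor and 1 ligand fell, and another receptor and a netrin-G rose. Neo1, the receptor neogenin, which also binds the repulsive guidance molecules, read 134, 128 and 229 in tdT+ SCA-1neg, 199.6, 177 and 222 in tdTneg SCA-1neg, 79.0, 60.2 and 68.2 in tdT+ SCA-1+ and 81.2 and 106 in tdTneg SCA-1+ libraries, in CPM. All SCA-1+ libraries lay below all SCA-1neg libraries, with a log2 fold change of -1.17 ± 0.18 (SE), adjusted p = 0.0018. Ntn3 read 4.49, 8.19 and 5.29 in tdT+ SCA-1neg, 4.05, 5.05 and 4.44 in tdTneg SCA-1neg, 0.160, 0.284 and 0.0516 in tdT+ SCA-1+ and 0.728 and 1.09 in tdTneg SCA-1+ libraries, in CPM. The populations did not overlap, with 99, 153 and 96 counts in tdT+ SCA-1neg and 6, 5 and 1 in tdT+ SCA-1+ libraries. The fitted log2 fold change was -3.73 ± 0.45 (SE), adjusted p = 0.000619, and at such counts its size depends on the prior count. Exons of Ntn3 overlap those of Tbc1d24 on the same strand, so that reads of the neighbour can count towards either gene. Unc5a, a netrin receptor, read 0.816, 0.161 and 0.386 in tdT+ SCA-1neg, 0.393, 0.529 and 0.146 in tdTneg SCA-1neg, 1.17, 1.42 and 2.58 in tdT+ SCA-1+ and 0.791 and 3.602 in tdTneg SCA-1+ libraries, in CPM. Its log2 fold change of 2.26 ± 0.63 (SE), adjusted p = 0.0332, rested on 3 to 86 counts per library, and exons of Hk3 overlap it on the opposite strand. With the replicate number as a block the adjusted p was 0.0694, and the call was also lost without any 1 of 6 of the libraries, with an adjusted p of up to 0.217. Ntng2, a lipid-anchored netrin-G that does not bind netrin receptors, read 3.90, 2.79 and 3.80 in tdT+ SCA-1neg, 1.16, 1.30 and 0.781 in tdTneg SCA-1neg, 9.03, 4.26 and 2.63 in tdT+ SCA-1+ and 9.52 and 7.79 in tdTneg SCA-1+ libraries, in CPM, with a log2 fold change of 1.80 ± 0.35 (SE), adjusted p = 0.00689. The tdTneg SCA-1neg libraries were the lowest for Ntng2, and the tdT+ libraries of both populations overlapped.

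The same comparison can be made in separate libraries, within tdT+ cells (3 against 3) and within tdTneg cells (2 against 3). Within tdT+ cells 5 guidance genes rose and 11 fell, against 2.91% and 5.54% of all genes. Within tdTneg cells 11 rose and 3 fell, against 3.29% and 1.45% of all genes. Ephb2, Robo1 and Sema4d rose in both, and Neo1 and Sema3e fell in both. The fold change had the same sign in both for 53 of the 65 genes (81.5%), against 66.3% of all genes tested. Median log2 fold changes were -0.47 within tdT+ and -0.14 within tdTneg cells, against -0.07 and -0.13 over all genes. Without tdT+CD49f+CD34+ replicate 2, 14 genes were called within tdT+ cells, and with both tdTneg SCA-1+ libraries left out of the fit 15 were. Without the 3 SCA-1neg libraries that stood apart, 21 genes were called within tdT+ cells, 13 of them among the 16, and 22 within tdTneg cells, all 14 among them. The tdTneg count rests on single libraries, since 1 gene, Nrp2, was called without tdTneg SCA-1+ replicate 1, 8 without replicate 2 of that group, and 8, 12 and 3 without tdTneg SCA-1neg replicates 1, 2 and 3.

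**Figure D4:**
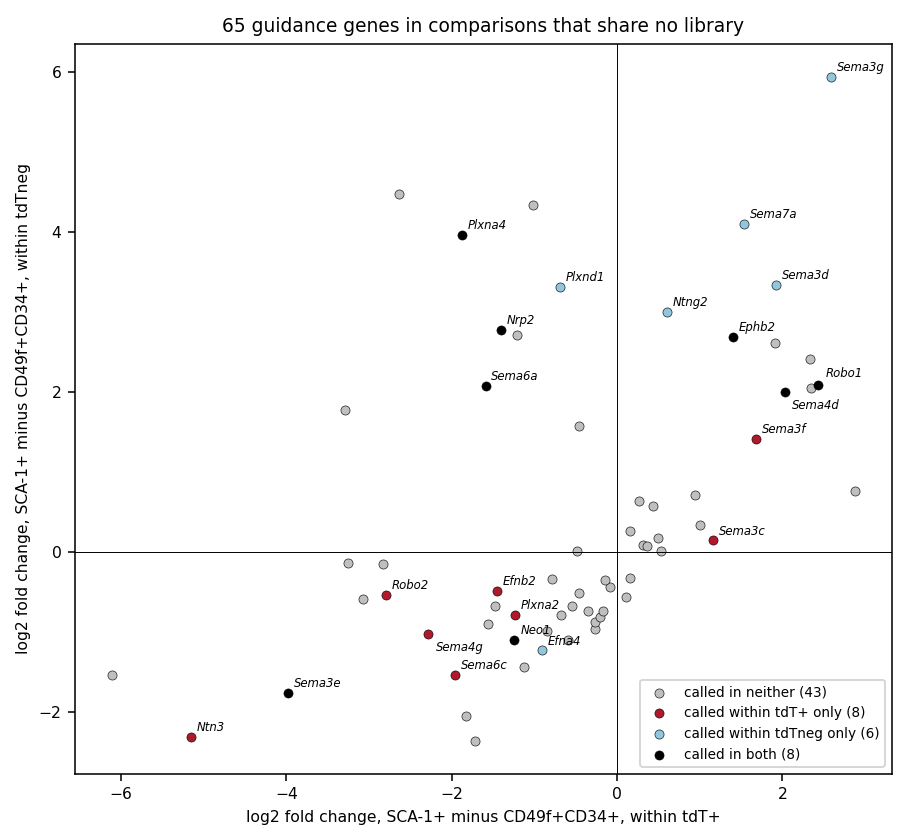
Log2 fold change from SCA-1neg to SCA-1+ cells within tdT+ (horizontal) and within tdTneg cells (vertical) for the 65 guidance genes tested, 1 point per gene, coloured by where it was called. Of the 65 points, 53 have the same sign on both axes, and Nrp2, Plxna4 and Sema6a lie in the upper left.

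For the 5 genes called the same way in both states the estimates were as follows. Sema4d rose on the log2 scale by 2.03 ± 0.33 (SE), adjusted p = 0.00406, within tdT+ and by 2.00 ± 0.35 (SE), adjusted p = 0.0134, within tdTneg cells. Robo1 rose by 2.43 ± 0.40 (SE), adjusted p = 0.00407, and by 2.09 ± 0.42 (SE), adjusted p = 0.0212. The calls of Sema4d and Robo1 within tdTneg cells were each lost in 3 of 17 settings, with an adjusted p of up to 0.0872 and 0.233. For both genes the 95% interval of the difference between tdT states included 0, at -1.05 to 1.09 for Sema4d and -0.92 to 1.60 for Robo1. Sema3e fell with a log2 fold change of -3.99 ± 0.42 (SE), adjusted p = 0.000519, within tdT+ and of -1.75 ± 0.44 (SE), adjusted p = 0.0467, within tdTneg cells, the latter at an adjusted p of 0.0536 with the replicate block and lost in 9 of 17 settings. Neo1 had -1.24 ± 0.23 (SE), adjusted p = 0.00818, and -1.09 ± 0.26 (SE), adjusted p = 0.0414, the latter at 0.0654 with the block and also lost in 9 of 17 settings. Ephb2 had 1.40 ± 0.39 (SE), adjusted p = 0.0448, and 2.68 ± 0.44 (SE), adjusted p = 0.011, the former at 0.0525 with the block and lost in 13 of 18 settings, and at 0.0728 without the 3 SCA-1neg libraries that stood apart. Within tdTneg cells, Sema3g had an adjusted p of 0.0403 that became 0.0613 with the block, and its call was lost in 8 of 16 settings, with an adjusted p of up to 0.155. A difference between the 2 states was tested for each gene as the difference in the effect of tdT below, and none of these 5 was called there by edgeR with the filter used here. DESeq2, both other count filters and the fit without the 3 libraries that stood apart called Sema3e, at -2.23 ± 0.55 (SE), adjusted p = 0.13 in edgeR.

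Promoters are shown for those of the 5 genes with 1 start in the RefSeq table, as the sequence at which genes that moved alike or oppositely begin. Each window runs from 250 bases before to 50 bases after the start, 5′ to 3′ on the gene's strand, in GRCm38.p6. Capitals mark the GC box GGGCGG, the CCAAT box CCAAT, the TATA box TATAAA and the E-box CACGTG on either strand, where runs may be reverse complements. Ephb2 starts on chromosome 4 (chr4:136835963-136836262, minus strand), Robo1 on chromosome 16 (chr16:72662899-72663198, plus strand, inside the longer Ensembl gene), Neo1 on chromosome 9 (chr9:59036392-59036691, minus strand) and Sema3e on chromosome 5 (chr5:14025026-14025325, plus strand).
Ephb2: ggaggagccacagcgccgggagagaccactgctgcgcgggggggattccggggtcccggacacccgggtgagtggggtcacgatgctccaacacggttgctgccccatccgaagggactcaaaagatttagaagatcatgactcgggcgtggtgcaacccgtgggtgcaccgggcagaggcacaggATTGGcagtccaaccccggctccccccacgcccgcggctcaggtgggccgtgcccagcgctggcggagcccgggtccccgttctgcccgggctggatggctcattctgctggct
Robo1: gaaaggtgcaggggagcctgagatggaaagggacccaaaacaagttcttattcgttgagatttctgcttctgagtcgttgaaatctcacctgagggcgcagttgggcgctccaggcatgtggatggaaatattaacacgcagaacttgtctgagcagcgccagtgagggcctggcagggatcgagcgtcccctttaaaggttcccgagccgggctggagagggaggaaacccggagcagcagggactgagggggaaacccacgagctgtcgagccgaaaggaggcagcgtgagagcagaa
Neo1: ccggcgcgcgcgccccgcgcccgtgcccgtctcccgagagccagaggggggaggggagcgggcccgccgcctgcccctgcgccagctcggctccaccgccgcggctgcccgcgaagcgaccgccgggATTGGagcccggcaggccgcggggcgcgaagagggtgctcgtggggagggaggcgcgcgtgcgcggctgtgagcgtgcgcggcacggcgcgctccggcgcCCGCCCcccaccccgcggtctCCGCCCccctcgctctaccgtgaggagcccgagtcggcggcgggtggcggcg
Sema3e: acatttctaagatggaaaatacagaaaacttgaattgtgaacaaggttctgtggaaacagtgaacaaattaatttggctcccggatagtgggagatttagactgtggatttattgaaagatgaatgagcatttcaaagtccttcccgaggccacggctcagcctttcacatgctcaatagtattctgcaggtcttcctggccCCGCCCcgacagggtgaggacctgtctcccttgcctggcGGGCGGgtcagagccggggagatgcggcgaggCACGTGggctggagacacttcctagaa
These matches are descriptions of the windows only. The rising Ephb2 and Robo1 hold no GC box in these windows, and the falling Neo1 and Sema3e hold 2 each. GC content was 68.7% for Ephb2, 57.0% for Robo1, 82.7% for Neo1 and 50.7% for Sema3e, with 24, 15, 54 and 11 CG pairs. Over all called genes, a GC box was present in 5 of 9 rising and 6 of 9 falling genes with a promoter in the table, in 47 of all 62 guidance genes with one, and in 38.2% of the 27025 genes of the table. The CCAAT box was present in 4 of 9 rising and 4 of 9 falling genes (41.1% of all genes), the E-box in 1 and 2 (8.09%), and the TATA box in none of the 18 (15.7%) and in 2 of the 62.

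Nrp2, Plxna4 and Sema6a were called in both states in opposite directions. Nrp2, a co-receptor for class 3 semaphorins and for a lymphatic growth factor, read 36.9, 61.1 and 30.6 in tdT+ SCA-1neg, 26.7, 33.99 and 25.8 in tdTneg SCA-1neg, 11.1, 21.5 and 16.1 in tdT+ SCA-1+ and 189 and 207 in tdTneg SCA-1+ libraries, in CPM. The tdTneg SCA-1+ libraries lay above all others and the tdT+ SCA-1+ libraries were the lowest. Its log2 fold change from SCA-1neg to SCA-1+ was -1.41 ± 0.29 (SE), adjusted p = 0.013, within tdT+ and 2.78 ± 0.32 (SE), adjusted p = 0.00471, within tdTneg cells. Without the 3 SCA-1neg libraries that stood apart, the fall within tdT+ cells was -0.94 (adjusted p = 0.0734) and no longer called. Plxna4, a signalling partner of neuropilins, read 2.40, 7.07 and 3.14 in tdT+ SCA-1neg, 1.55, 3.38 and 1.27 in tdTneg SCA-1neg, 0.933, 1.53 and 0.981 in tdT+ SCA-1+ and 34.1 and 30.6 in tdTneg SCA-1+ libraries, in CPM. The tdTneg SCA-1+ libraries were again the highest, while the tdT+ SCA-1+ libraries overlapped the tdTneg SCA-1neg ones, with -1.87 ± 0.51 (SE), adjusted p = 0.0407, within tdT+ and 3.97 ± 0.57 (SE), adjusted p = 0.0073, within tdTneg cells. Its fall within tdT+ cells was lost without any 1 of 7 of the libraries, among them tdT+CD49f+CD34+ replicate 2, with an adjusted p of up to 0.117. Sema6a, a membrane ligand of Plxna2 and Plxna4, read 32.1, 24.96 and 22.5 in tdT+ SCA-1neg, 16.01, 18.5 and 12.8 in tdTneg SCA-1neg, 6.71, 12.5 and 7.23 in tdT+ SCA-1+ and 60.4 and 72.6 in tdTneg SCA-1+ libraries, in CPM. Its log2 fold changes were -1.59 ± 0.27 (SE), adjusted p = 0.00541, and 2.08 ± 0.29 (SE), adjusted p = 0.00694.

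Comparing tdT+ with tdTneg cells asks whether the descendants of cells with Cre activity differ from the others in the same gate. Within SCA-1+ cells, 5 of the 65 guidance genes were lower in tdT+ than in tdTneg cells by edgeR, Nrp2, Plxna4, Sema6a, Sema3e and Ephb4, and none was higher. Of all genes, 2.06% were lower and 0.251% higher. By an unadjusted p under 0.05, 21 of the 65 genes passed in either direction, against 14.6% of all genes, and DESeq2 called 11, all of them lower, and 5.61% of all genes in either direction. Nrp2 had a log2 fold change of -3.61 ± 0.33 (SE), adjusted p = 0.000776, Plxna4 of -4.82 ± 0.59 (SE), adjusted p = 0.00289, and Sema6a of -2.92 ± 0.30 (SE), adjusted p = 0.00138. Ephb4, a receptor of Efnb2 that marks venous endothelium and is also made by keratinocytes, read 133, 133 and 143 in tdT+ SCA-1neg, 202, 197 and 206 in tdTneg SCA-1neg, 94.6, 84.5 and 114 in tdT+ SCA-1+ and 188 and 219.7 in tdTneg SCA-1+ libraries, in CPM. The tdT+ SCA-1+ libraries were the lowest, and the tdTneg SCA-1+ libraries lay beside the tdTneg SCA-1neg ones. Its log2 fold change was -1.06 ± 0.14 (SE), adjusted p = 0.00531, close to the fold threshold and lost without tdTneg SCA-1+ replicate 2, and exons of Zan overlap it on the opposite strand. Sema3e had -1.94 ± 0.41 (SE), adjusted p = 0.0386, a call that was lost without any 1 of 7 of the libraries.

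Counts in this comparison reached 9 without tdT+ SCA-1neg replicate 3, with 700 of all genes called against 470. Without tdT+CD49f+CD34+ replicate 2 they were 6, with 554 of all genes. Fewer guidance genes were called without tdTneg SCA-1+ replicate 2, which leaves 1 library in that group. Without the 3 SCA-1neg libraries that stood apart, 13 were called, all lower, with the 5 among them, and 1149 of all genes against 470. Nrp2, Plxna4 and Sema6a were called in all the settings tried. The median log2 fold change of the guidance genes was -0.26, against 0.04 over all genes. Plxnd1, a receptor of Sema3e known from vessels, read 22.7, 61.8 and 14 in tdT+ SCA-1neg, 7.75, 48.0 and 9.56 in tdTneg SCA-1neg, 22.4, 17.4 and 21.01 in tdT+ SCA-1+ and 188 and 245 in tdTneg SCA-1+ libraries, in CPM. It rose within tdTneg cells from SCA-1neg to SCA-1+, at 3.32 ± 0.79 (SE), adjusted p = 0.0384, a call lost without any 1 of 7 of the libraries, and between tdT+ and tdTneg SCA-1+ cells it had -3.42 ± 0.79 (SE), adjusted p = 0.0542. In the SCA-1neg groups the 3 libraries that stood apart were the highest for Plxnd1, and without them these values were 4.69 (adjusted p = 8.54e-06) and -3.48 (adjusted p = 1.08e-05), both called. The endothelial markers followed the same libraries, with 3925 and 4179 CPM in tdTneg SCA-1+ and 53.3 to 141 CPM in tdT+ SCA-1+ libraries, and 1 of the 9, Egfl7, was called between them (log2 fold change -5.34). Their part in the results for Nrp2, Plxna4, Sema6a, Plxnd1 and Ephb4 was not tested. Bulge markers differed too, with 4 of 7 lower in tdT+ than in tdTneg SCA-1+ cells, and 4 of 7 T cell markers were higher.

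**Figure D5:**
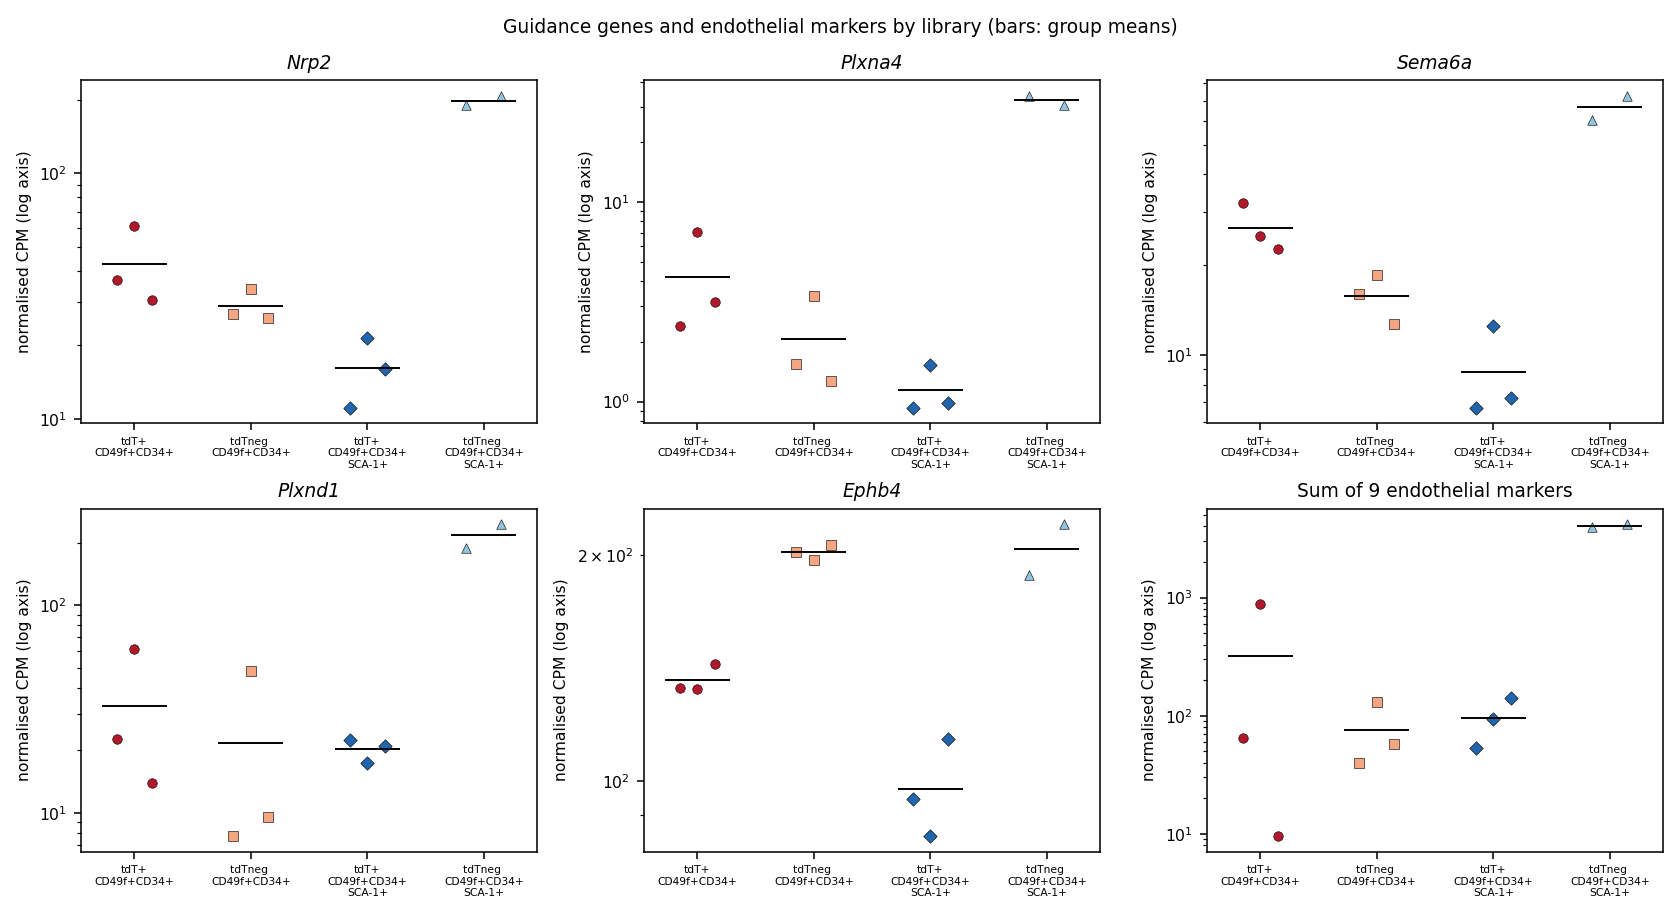
Normalised CPM (log axis) of Nrp2, Plxna4, Sema6a, Plxnd1 and Ephb4 and the sum of 9 endothelial markers, 1 point per library with the group mean as a bar. In 5 of the 6 panels the 2 tdTneg SCA-1+ libraries lie above every other library, whereas for Ephb4 they lie beside the tdTneg SCA-1neg libraries.

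Within SCA-1neg cells, tdT+ and tdTneg cells differed in no guidance gene by edgeR with the filter used here. With the filter of 1 count edgeR called Ephb2 and Sema3d, and with that of 10 counts Ephb2. Of all genes, 0.00985% were higher, and 11 of the 65 guidance genes had an unadjusted p under 0.05, against 8.42% of all genes. DESeq2 called 3, Ephb2, Ntng2 and Sema3d, all higher in tdT+ cells, and 1.65% of all genes in either direction. Ephb2 was at 2.41 to 6.75 CPM in tdT+ and 0.76 to 1.05 CPM in tdTneg SCA-1neg libraries, without overlap, with an edgeR log2 fold change of 2.30 ± 0.41 (SE), adjusted p = 0.139. Ntng2 had 1.69 ± 0.48 (SE), adjusted p = 0.357, and Sema3d 2.05 ± 0.60 (SE), adjusted p = 0.371. The 95% interval of the log2 fold change was 1.39 to 3.21 for Ephb2, 0.61 to 2.77 for Ntng2 and 0.71 to 3.39 for Sema3d. Leaving out any 1 library, among them tdT+CD49f+CD34+ replicate 2, left the edgeR count at 0.

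The effect of tdT itself was compared between the populations. It was lower in SCA-1+ than in SCA-1neg cells for 3 guidance genes, Nrp2 (-4.19 ± 0.43 (SE), adjusted p = 0.00855), Plxna4 (-5.84 ± 0.76 (SE), adjusted p = 0.0134) and Sema6a (-3.67 ± 0.40 (SE), adjusted p = 0.00988), and higher for none by edgeR. Of all genes, 0.379% were lower and 0.00985% higher, and 17 of the 65 guidance genes had an unadjusted p under 0.05, against 12.4% of all genes. DESeq2 called 10, all lower, and 3.87% of all genes in either direction. Without tdTneg SCA-1+ replicate 2, which leaves 1 library in that group, the 3 calls did not hold. Without tdT+CD49f+CD34+ replicate 2 all 3 were called, with 63 of all genes against 79. Without the 3 SCA-1neg libraries that stood apart, the differences were -3.91 for Nrp2, -6.05 for Plxna4 and -3.63 for Sema6a. In that fit they were -2.83 for Sema3e, -4.17 for Plxnd1 and -3.03 for Robo2. Nrp1, the other neuropilin, read 51.0, 32.6 and 2.87 in tdT+ SCA-1neg, 2.58, 30.9 and 2.07 in tdTneg SCA-1neg, 1.09, 5.85 and 2.01 in tdT+ SCA-1+ and 33.5 and 48.0 in tdTneg SCA-1+ libraries, in CPM. Inside the SCA-1neg groups the 3 libraries that stood apart, which also held the highest sebaceous gland markers, read 30.9 to 51.0 CPM and the other 3 read 2.07 to 2.87 CPM. Its difference was -5.07 ± 1.76 (SE), adjusted p = 0.273, and without those 3 libraries it was -4.17. In that fit the log2 fold change of Nrp1 for tdT in SCA-1+ cells was -3.87. From SCA-1neg to SCA-1+ cells it was 4.17 within tdTneg and 0.002 within tdT+ cells. With the filter of 1 count edgeR called Nrp1 for tdT in SCA-1+ cells and for the difference. The part of the sebaceous gland markers was not tested. Sema6b and Ntn1, at 44.6 and 47.1 and at 64.9 and 53.3 CPM in the tdTneg SCA-1+ libraries and at most 13.7 and 18.8 CPM elsewhere, had adjusted p-values of 0.223 and 0.375 for the difference by edgeR. Without tdT+ SCA-1neg replicate 3, edgeR called both for tdT in SCA-1+ cells and Sema6b for the difference. Without the 3 SCA-1neg libraries that stood apart, the log2 fold changes of tdT in SCA-1+ cells were -4.23 for Sema6b and -3.84 for Ntn1. Between the populations they were 4.66 and 4.14 in that fit, and the differences in the effect of tdT were -1.53 and 2.16.

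A further 58 genes that act with these ligands and receptors, among them CRMP proteins and repulsive guidance molecules, were tested beside them. From SCA-1neg to SCA-1+ cells 3 rose (5.17%) and 6 fell (10.3%), against 4.77% and 6.79% of all genes, with a median log2 fold change of -0.04, against -0.09 over all genes. Within tdT+ cells 2 rose (3.45%) and 5 fell (8.62%), against 2.91% and 5.54% of all genes. Within tdTneg cells 3 rose (5.17%) and 4 fell (6.90%), against 3.29% and 1.45%. The shares that rose were thus near those over all genes, and the values below are those of single genes among the 9 called between the populations. Dpysl4, a CRMP protein downstream of semaphorins, fell with a log2 fold change of -4.02 (adjusted p = 0.000826), and Farp1, an exchange factor that binds plexins, with -1.97 (adjusted p = 0.000373), both by edgeR. Ngef, an exchange factor downstream of EphA receptors, had -1.44 (adjusted p = 0.00446). Vav3, an exchange factor downstream of ephrin receptors, rose with 1.02 (adjusted p = 0.00117) and L1cam, an adhesion partner of neuropilins, with 1.01 (adjusted p = 0.00665). The other 4 were Crmp1, which rose, and Enah, Srgap3 and Rnd2, which fell by 1.11 to 1.43 on the log2 scale. Within SCA-1+ cells 4 of the 58 (6.90%, against 2.06% of all genes), Fyn, Farp1, Rnd1 and Kalrn, were lower in tdT+ than in tdTneg cells and none was higher (against 0.251%), and within SCA-1neg cells none was called by edgeR.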

How the data were processed

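RNA of 11 libraries in 4 sorted groups was measured by polyadenylated RNA sequencing. According to the methods, the authors aligned reads with STAR to mm10 (Ensembl release 96) and counted them with featureCounts. The deposited files hold whole counts per gene without normalization. Strand and multimapping settings are not given in the sources used here. The row outside the Ensembl genes was left out of totals and tests (at most 307 CPM).

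Counts were fitted over all 11 libraries in R 4.3.3 with edgeR 4.0.16 (TMM, filterByExpr, quasi-likelihood F-test, 1 mean per group), with Benjamini-Hochberg adjustment over 20307 genes. Calls required an adjusted p under 0.05 together with a log2 fold change beyond 1 in either direction, as in the study, which ran DESeq2. DESeq2 1.42.0, RLE size factors, other count filters, no fold threshold, a replicate block and omission of each library were tried. The fit was tested on simulated data.

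Members and lists were chosen with earlier results of these data known. Values per library are given for members called in at least 1 of the 6 comparisons and for the member of each guidance family with the highest mean RPKM (Unc50 and Unc5cl belong to none), and other members given with values, such as Nrp1, Sema6b, Ntn1 and Sema4b, were added after their values were seen. Pathway genes named are the called ones. RPKM uses the union of annotated exons. Libraries with the same replicate number were read as 1 pool of mice, as each biological replicate is described as material of 2 mice. Over 15 such pairs the deviations from the group means correlated across genes with a median r of 0.08 (-0.42 to 0.59), against -0.02 (-0.60 to 0.51) over 30 other pairs. No 2 replicates agreed within sampling noise (chi-square per degree of freedom from 45.5 to 302). Over all genes, 95% intervals for the population difference had a median half-width of 0.71 (log2). Promoters are RefSeq windows (GRCm38.p6), found by symbol for 62 of 72 members. Python 3.11.15 was used for figures.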

Additional observations from a re-analysis of the deposited data

Results flagged for a closer look

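For Nrp2, Plxna4 and Sema6a the effect of tdT differed between the populations by an interaction term in edgeR. The log2 fold change of tdT+ against tdTneg cells was lower in SCA-1+ than in SCA-1neg cells by -4.19 for Nrp2, -5.84 for Plxna4 and -3.67 for Sema6a. In SCA-1neg cells the log2 fold change was 0.57 for Nrp2, 1.02 for Plxna4 and 0.75 for Sema6a, with none called, and in SCA-1+ cells it was -3.61, -4.82 and -2.92. The contrast rests on the 2 tdTneg SCA-1+ libraries, in which endothelial markers were also highest, and the part of those markers was not tested. Without tdTneg SCA-1+ replicate 2 the adjusted p rose to 0.0579 for Nrp2 and 0.0638 for Sema6a, and Plxna4 was not called either. The call of Plxna4 was also lost without tdTneg SCA-1+ replicate 1, tdTneg SCA-1neg replicate 1 or tdT+ SCA-1+ replicate 1, with an adjusted p of up to 0.0740.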

How the results depend on the processing

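With the replicate block, the counts of called guidance genes were 20 between the populations, 17 within tdT+, 11 within tdTneg, 0 and 5 for tdT in SCA-1neg and SCA-1+ cells and 3 for the difference in its effect, against 19, 16, 14, 0, 5 and 3. Over all genes they were 2262, 1704, 811, 4, 404 and 77, against 2347, 1715, 963, 2, 470 and 79. The calls of Plxna2, Unc5a, Ephb2, Sema3e, Sema3g and Neo1 that the block ended are given beside them in the report, and it added Epha7, Plxna4 and Plxnd1 between the populations and Epha7 and Sema6d within tdT+ cells. Without a fold threshold 30 genes passed between the populations, with 3917 of all genes. DESeq2 called 3 genes for tdT in SCA-1neg cells, 11 in SCA-1+ cells and 10 for the difference, with 332, 1126 and 777 of all genes. Keeping genes with 1 count anywhere gave 2, 11 and 8, with 166, 885 and 568 of all genes. Requiring 10 counts throughout gave 1 for tdT in SCA-1neg cells, with 20 of all genes. Calls over all genes also moved when 1 library was left out. Within tdTneg cells they were 216 without tdTneg SCA-1neg replicate 3 and 1300 without tdT+ SCA-1neg replicate 3. Leaving out 1 library gave 16 to 21 genes between the populations, 13 to 19 within tdT+, 1 to 18 within tdTneg, 0 for tdT in SCA-1neg cells, 3 to 9 in SCA-1+ cells and 0 to 4 for the difference. Omission of a tdTneg SCA-1+ library leaves 1, assumed to vary like the other groups. This omission was added after seeing the data for the comparisons that use that group by itself (within tdTneg, tdT in SCA-1+ cells and the difference), as was the omission of both within tdT+ cells and for tdT in SCA-1neg cells. Leaving out the 3 SCA-1neg libraries that stood apart on the first principal component, also added after seeing the data, gave 27, 21, 22, 0, 13 and 6 genes in the order above. It ended the calls of Ephb1 and Unc5a between the populations and of Nrp2, Ephb2 and Sema3c within tdT+ cells. The cause of these shifts was not tested, beyond the fewer libraries or genes entering each fit. Of 57 calls of a gene in a comparison, 29 held in all settings in which the gene was tested, other than that omission. Another 28 were lost in 1 or more and 0 reversed. Ntn3 and Sema3g were not tested with the filter of 10 counts, and dropping the fold threshold cannot end a call. Depth limits the scarce genes, such as Sema3g, Unc5a and Ntn3 in SCA-1+ cells.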
